A study of Mus musculus with 1536 samples.

Results

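The 10 genes described here are the members of the *Bcl2* family, with *Mcl1* at their head, that hold the mitochondrial route of cell death in check or set it off: the survival genes *Mcl1*, *Bcl2*, *Bcl2l1* and *Bcl2l2*, the BH3-only genes *Bcl2l11*, *Bbc3*, *Pmaip1* and *Bid*, and the effectors *Bax* and *Bak1*. They were chosen by symbol, and all 10 were among the 23168 genes of the expression matrix. They were followed in single LECs (lymphatic endothelial cells) from the nasopharyngeal mucosa of adult mice, whose strain the labels give as C57BL/6, with no treatment or allele named. Tissue of 30 mice of both sexes (aged 10–12 weeks) was pooled and digested with enzymes, live CD31+ PDPN+ cells were sorted into wells, and each well was sequenced by Smart-seq3, a plate method that reads full-length cDNA. Since neither labels nor column names give a mouse or a plate, all adult cells of the matrix are 1 sample, and shares below are shares of these cells. Cells are not replicates, so spreads over cells and correlations across cells are given as descriptions with no p-value.

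BAX and BAK1 open the outer membrane of the mitochondrion, which releases cytochrome c and starts the caspase cascade. MCL1, BCL2, BCL-XL (encoded by *Bcl2l1*) and BCL-W (encoded by *Bcl2l2*) hold them in check, and the BH3-only proteins lift that hold or engage the effectors themselves. MCL1 is a short-lived protein that depends on continued transcription and is controlled by degradation. *Fos*, *Jun* and *Egr1* are immediate early genes, which cells transcribe within minutes of many stimuli, the handling of tissue among them. The questions put to the data were how survival and death genes were balanced in each cell and how each member went with the mean of these immediate early genes.

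The deposited values are the natural log (ln) of 1 plus reads per 10000, from which whole reads were recovered. Total reads per cell lay between 7433 and 3524358 (median of 350746), a range of 474.2-fold, and a weakly transcribed gene is missed more often in a shallow cell. Shares are therefore also given after each cell was thinned to 20000 reads, which left out 51 shallower cells. All 7 LEC markers, *Prox1*, *Flt4* and *Lyve1* among them, were found in most cells, and every cell held at least 3 of them. At least 3 of 5 immune markers were found in 2 cells, at least 3 of 5 fibroblast markers in 2 cells and as many epithelial or mural markers in none, and *Ptprc* and *Cd3e* had no read in any cell, which allows a share of up to 0.356% of cells with a read. At least 3 of 5 blood endothelial markers were found in 44.7% of cells, led by *Emcn* and *Plvap*, which lymphatic cells can also express, while *Flt1* was found in 2.49% of cells. Reads of a Y chromosome gene stood beside those of *Xist* in 52 wells. These wells were kept. Without them, the share of cells in which survival genes were ahead and the r of *Mcl1* given below came to 85.3% and 0.218.

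*Mcl1* and *Bcl2l1* were read in most of these cells, whereas every other member was absent from the reads of many cells or of most. *Mcl1* (chromosome 3 of GRCm38, 95658788 to 95663176, plus strand, 2 annotated transcripts) had reads in all but 41 cells, a share of 95.1% (95% exact Clopper–Pearson interval of 93.5–96.5, which covers counting error only). At 20000 reads per cell it was still found in 88.1%, so its near ubiquity did not rest on the deep cells. Its level was nonetheless broad: reads per 10000 were 0.318 at the 10th percentile, 3.0 at the median and 8.02 at the 90th percentile, a span of 25.2-fold, and 24.6 in the highest cell. The 41 cells without a *Mcl1* read were shallow, with a median of 55666 total reads against 387555 in the others, and 31 of them (75.6%, 59.7–87.6) had reads of *Bcl2l1*.

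*Bcl2l1* (chromosome 2, 152780668 to 152831728, minus strand), whose main product BCL-XL is a more stable survival protein than MCL1, was found in 88.4% of cells (86–90.4) at a mean ln value of 1.02 ± 0.667 (SD over all cells, as for all ln values here), against 1.32 ± 0.705 for *Mcl1*. Levels of different genes can be set side by side only per length. Per kb of annotated exon, the mean of *Mcl1* was 1.09 reads per 10000 and that of *Bcl2l1* was 0.537, and when the longest transcript was taken as the length *Bcl2l1* came to 0.959, close to *Mcl1*. *Mcl1* was therefore ahead of *Bcl2l1* on both lengths, by a margin that the choice of length set. *Bcl2l1* can be spliced to a short form of opposite function, and the values per gene do not separate the forms. *Bcl2l2* was found in 46.3% of cells (42.9–49.8) at 0.128 reads per 10000 per kb, and part of its exons is shared on the same strand with Gm20521, so reads there could have been lost or credited to either gene.

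*Bcl2*, the founding member of the family, was the lowest of the survival genes. It was found in 17.5% of cells (15–20.2), with a mean ln value of 0.0981 ± 0.288, and at 0.0189 reads per 10000 per kb it lay below every other member. After thinning it was found in 10.5% of cells. Its 9.157 kb of exon make it the longest member, and an RNA on the other strand (*D630008O14Rik*) overlaps some of those bases.

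Among the death genes, *Bax* was the most widely read. *Bax* (chromosome 7, 45461697 to 45466898, minus strand) was found in 53.6% of cells (50.1–57) at a mean ln value of 0.264 ± 0.362 and 0.260 reads per 10000 per kb, against 1.09 for *Mcl1*. Its partner *Bak1* was found in 20.3% (17.6–23.2) at 0.0374 per kb, and a gene on the other strand, Ggnbp1, overlaps part of its exons. Of the BH3-only genes, *Bcl2l11*, which encodes BIM, was found in 36.5% (33.2–39.8) at 0.0703 per kb, *Pmaip1*, which encodes the MCL1-binding protein NOXA, in 21.7% (19–24.7) at 0.0894 per kb, and *Bbc3*, which encodes PUMA, in 22% (19.2–24.9) at 0.0640 per kb. *Bid*, which links death receptors to the mitochondrion once caspase-8 cuts it, was the least often found, in 7.48% of cells (5.80–9.47). A gene on the other strand, Bcl2l13, overlaps part of the exons of *Bid*.

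A low share did not mean a low level in the cells that had the gene. The 63 cells with *Bid* reads had a median of 44 reads and a median ln value of 0.881, whereas the cells with *Bbc3* reads had a median of 6 reads and a median ln value of 0.213. *Bcl2l11* reached the highest value of any member in a single cell, an ln value of 3.31 against 3.24 for *Mcl1*, although 63.5% of cells held none of its reads. At 20000 reads per cell *Bbc3* fell to 10.1% of cells, *Bak1* to 10.4%, *Pmaip1* to 15% and *Bcl2l11* to 24%, so each of these 4 genes was missing from the reads of most cells at that depth.

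**Figure D1:**
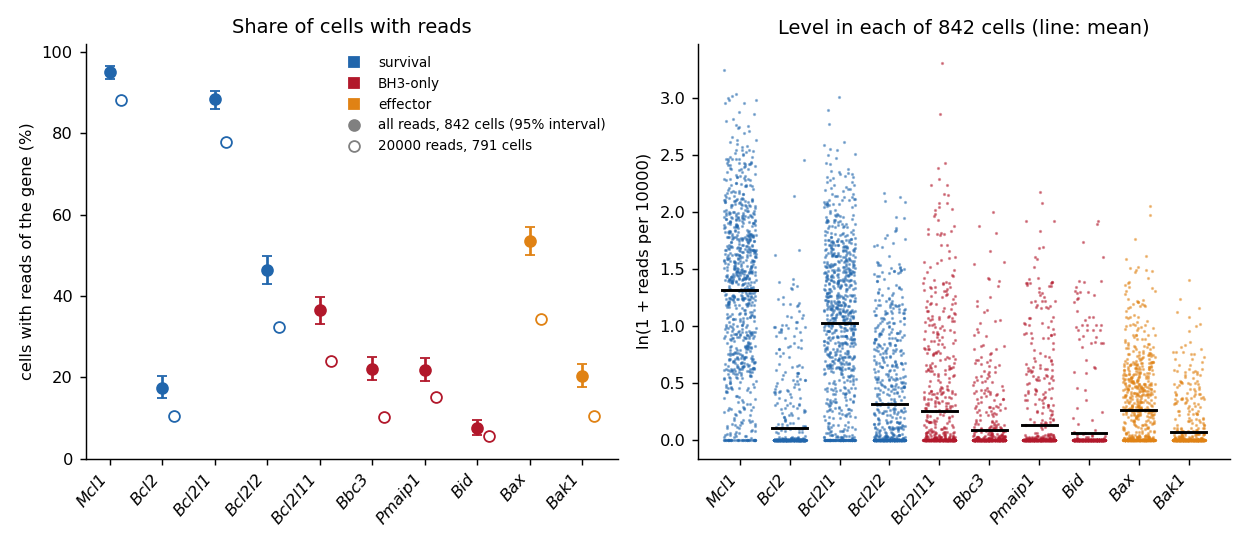
Levels of the 10 members in adult LECs. Left, percentage of cells with at least 1 read (filled points with 95% exact intervals, all cells; open points, cells thinned to 20000 reads). Right, ln(1 + reads per 10000) in each cell with the mean as a line. *Mcl1* (95.1%) and *Bcl2l1* (88.4%) stand above all others, and *Bid* (7.48%) is the least often found.

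The balance of the 2 sides was taken in each cell as the log2 ratio of the summed survival genes to the summed death genes, in reads per 10000 per kb with 0.1 added to each sum. Survival genes outweighed death genes in 85.6% of cells (83.1–87.9), and the median balance was 1.84 on the log2 scale (middle 50% of cells from 0.632 to 3.21). Averaged over cells, the summed survival genes came to 1.78 ± 1.18 and the summed death genes to 0.553 ± 0.665 reads per 10000 per kb, a ratio of 3.22. The share was nearly the same with the longest transcript as length (85.2%), in cells with at least 3000 genes (85.9%) and after thinning (83.2%). No read of any death gene was found in 16.9% of cells, and in 34.1% after thinning. The median balance depended on the value added to each sum, and was 0.861 with 1 and 2.10 with 0.01.

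Per kb of annotated exon, much of this excess was *Mcl1*. It was the highest survival gene per kb in 66% of cells (62.7–69.2), *Bcl2l1* in 28.6% (25.6–31.8), *Bcl2l2* in 3.80% (2.61–5.32) and *Bcl2* in 0.594% (0.193–1.38). In the median cell *Mcl1* gave 60.8% of the summed survival level. With *Mcl1* left out, survival genes were ahead in 58.8% of cells (55.4–62.1) and the median balance was 0.374.

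On the other side, *Bax* carried the largest part. Without it, survival genes were ahead in 93.1% of cells (91.2–94.7). In the 13.9% of cells where death genes were ahead, *Bax* was the highest death gene per kb in 61 cells, *Pmaip1* in 16, *Bbc3* in 14, *Bid* in 11, *Bcl2l11* in 9 and *Bak1* in 6. These cells were not shallow, with a median of 406528 total reads. Reads of neither *Bax* nor *Bak1* were found in 38.6% of cells (35.3–42), whose median depth was 145639 reads, and reads of both in 12.5% (10.3–14.9), whose median depth was 652814 reads, so finding both effectors went with depth. At 20000 reads per cell the share with neither was 59.8%.

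The balance depends on which relatives are counted. Of 9 further family members listed, *Bcl2a1a*, *Bcl2a1b*, *Bcl2a1d* and *Bcl2l10*, all survival genes, have no row in the matrix, and 5 death genes do. *Bok*, an effector-like relative of *Bax*, was found in 52.7% of cells at 0.679 reads per 10000 per kb, which is above *Bax* (0.260). The BH3-only genes *Bik* (45.4% of cells, 0.418 per kb) and *Bad* (43.3%, 0.258 per kb) lay above *Bax* and next to it on this scale, whereas *Bmf* (9.74%, 0.0179 per kb) and *Hrk* (0.356%) were rare. With these 5 added, survival genes were ahead in 53.1% of cells (49.7–56.5) and the median balance fell to 0.130. A ratio of RNA levels weighs every gene alike and does not measure protein or binding.

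**Figure D2:**
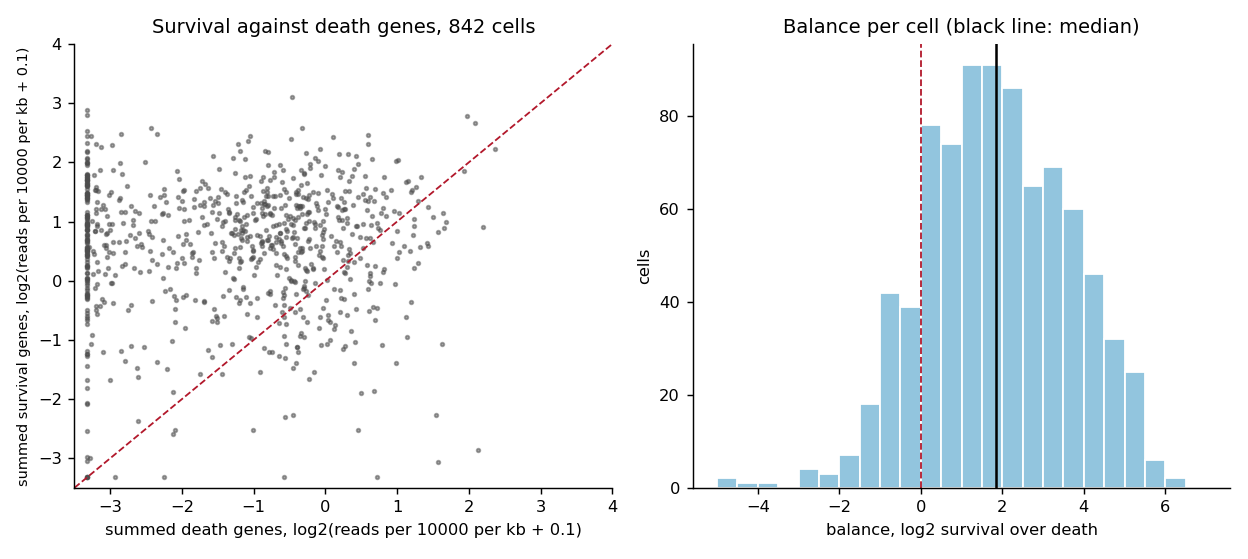
Balance of the 4 survival and 6 death genes. Left, log2 of the summed survival level against log2 of the summed death level in each cell (reads per 10000 per kb plus 0.1), with the line of equality dashed; the column of points at the left edge is the 16.9% of cells with no read of any death gene. Right, histogram of the log2 ratio, with the median of 1.84 in black and 0 dashed; 85.6% of cells lie above 0.

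Immediate early genes were high in these cells: *Fos* was found in 99.8% at a mean ln value of 3.60 ± 1.70, *Jun* in 98.1% at 2.35 ± 1.31 and *Egr1* in 91.9% at 1.87 ± 1.29. Their mean per cell, called the score below, ran from 0.0545 to 5.01 with a median of 3.0. Across cells the score had an r of 0.0326 with the log of total reads, 0.140 with the log of genes found and -0.255 with the mitochondrial share of reads, so cells with a high score held less mitochondrial RNA. Whether that share has a part in the results below was not tested.

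On ln values *Mcl1* had the highest Pearson r with the score of the 10 members. It was 0.204 across all cells, which placed it in the top 1.82% of the 9655 genes found in at least 10% of cells (the 3 score genes included), over which the median r was -0.0061 and the 95th percentile 0.110. An r of at least 0.2 was reached by 1 of the 9 members tested, *Mcl1*, and by 1.85% of all genes outside the score. No member reached an r of -0.2 or below, as did 0.249% of all genes. All points share 1 pool of tissue, and the relation was weak.

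The r stayed positive, but below 0.2, at equal depth (r = 0.183 after thinning), given reads and genes found (partial r = 0.182), and in ranks (Spearman's rho = 0.159). No member reached 0.2 under these settings, for which the share of all genes at 0.2 or above was not counted. Within tertiles of cells by depth the r of *Mcl1* was 0.182, 0.213 and 0.256 from the shallowest to the deepest. It was 0.138 with *Fos* alone, 0.205 with *Jun* alone and 0.228 with *Egr1* alone. A longer list of 18 other immediate early and early response genes, whose mean had an r of 0.874 with the score, gave 0.330 for *Mcl1*, and 2.39% of all genes reached 0.2 with that list. On linear values, in reads per 10000 in place of ln, the r of *Mcl1* was -0.0177, and *Bbc3* was then the highest member (0.130).

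The shape was a rise to a highest point near the middle of the score, with somewhat lower means beyond it. When cells were ordered by the score and divided into deciles of 84 or 85 cells, the mean ln value of *Mcl1* was 0.854 ± 0.655 in the lowest decile, 1.16 ± 0.668 in the next and 1.54 ± 0.706 in the fifth, where it was highest. From the sixth decile to the last it lay between 1.29 and 1.47, below the fifth. Depth differed between these groups: the median was 578416 reads in the lowest decile and 168284 in the next, and *Mcl1* had an r of -0.156 with the log of total reads. At 20000 reads per cell the ratio of mean *Mcl1*, highest over lowest quartile of the score, was 1.39, against 1.36 with all reads. For this ratio 0.1 was added to each mean. The SD within every decile was at least 0.613, close to the size of the rise, so cells of low and high score overlapped widely in *Mcl1*. *Bcl2l1* showed no such rise: its mean was 0.984 ± 0.702 in the lowest quartile of cells and 1.01 ± 0.680 in the highest, and its r with the score was 0.0258.

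**Figure D3:**
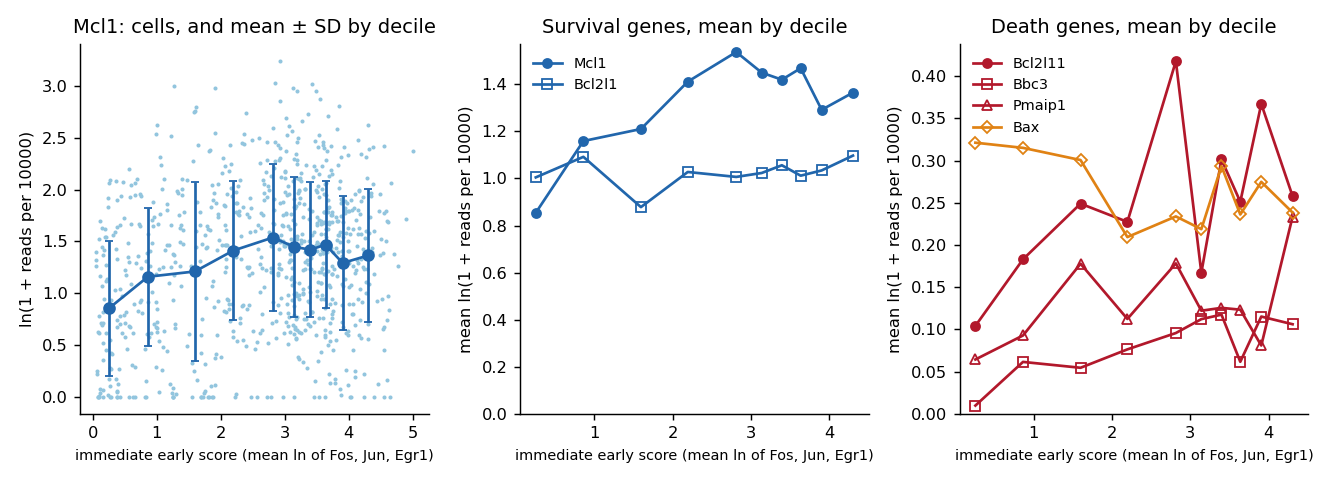
Members along the immediate early score (mean ln value of *Fos*, *Jun* and *Egr1*, x axis). Left, *Mcl1* in each cell and its mean ± SD over cells in deciles of the score, from 0.854 in the lowest to 1.54 in the fifth. Middle and right, means by decile of other members; the y axis is ln(1 + reads per 10000) throughout. *Bcl2l1* stays near 1, and *Bbc3* rises from a value near 0.

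The BH3-only genes *Bbc3* and *Bcl2l11* came next, with an r of 0.121 and 0.111, in the top 4.18% and 4.97% of genes. In ranks *Bbc3* (rho = 0.157) was level with *Mcl1* (0.159), and with *Fos* alone it was close (0.133 against 0.138). Both are sparse, and at this size an r in sparse counts is no more than a description. *Bbc3* was found in 11.8% of cells in the lowest quartile of the score (7.82–17) and in 28.1% of cells in the highest (22.1–34.7), and *Bcl2l11* in 27.5% (21.6–34) and 45.2% (38.4–52.2). Median depth was 316970 reads in the lowest quartile and 479924 in the highest. At 20000 reads per cell the ratio of means between these quartiles was 1.79 for *Bbc3* and 1.71 for *Bcl2l11*, against 1.77 and 1.83 with all reads.

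By mean reads per 10000, with 0.1 added, 2 of the 9 members tested were at least 1.5-fold higher in the highest quartile than in the lowest, *Bcl2l11* and *Bbc3*, as were 5.27% of all genes. With 0.1 added, none of the 9 was at least 1.5-fold lower, as were 8.43% of all genes. The ratio was 1.36 for *Mcl1* (2.68 against 3.7 reads per 10000), 1.22 for *Pmaip1*, 1.01 for *Bcl2l1*, 0.918 for *Bcl2*, 0.861 for *Bcl2l2*, 0.808 for *Bak1* and 0.752 for *Bax*. The median over all genes tested was -0.134 on the log2 scale. The added 0.1 draws the ratios of sparse members toward 1. Mean reads per 10000 of *Bak1* were 0.107 in the lowest quartile and 0.0675 in the highest, so the call for *Bak1* depends on it. No other added value was tried for these ratios. *Mcl1* peaked in the 2 middle quartiles (4.35 and 4.23 reads per 10000), which a comparison of the ends leaves out. The quartiles are ranges of a continuous score, and 20 cells lay within 0.1 of the upper end of the lowest quartile and 80 within 0.1 of the lower end of the highest. When quartiles were drawn by the longer list, *Mcl1* (2.06-fold) and *Pmaip1* (1.56-fold) also passed 1.5-fold, beside *Bcl2l11* and *Bbc3*, and *Bax* (0.586) was at least 1.5-fold lower. Over all genes outside both lists, 6.67% were as much higher and 11.8% as much lower in these quartiles.

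The effectors did not go up with the score. *Bax* had an r of -0.0673 and *Bak1* one of -0.0261, both inside the central 90% of all genes (-0.0857 to 0.110), and *Bax* stayed negative under thinning (-0.0514) and given depth (-0.0834). *Bcl2* (-0.0229), *Bcl2l2* (-0.0120), *Bid* (0.0058) and *Pmaip1* (0.0624) were inside that range too. The balance itself barely went with the score (r = 0.0447): its median was 1.54 in the lowest quartile, 1.98 and 1.95 in the middle ones and 1.66 in the highest.

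**Figure D4:**
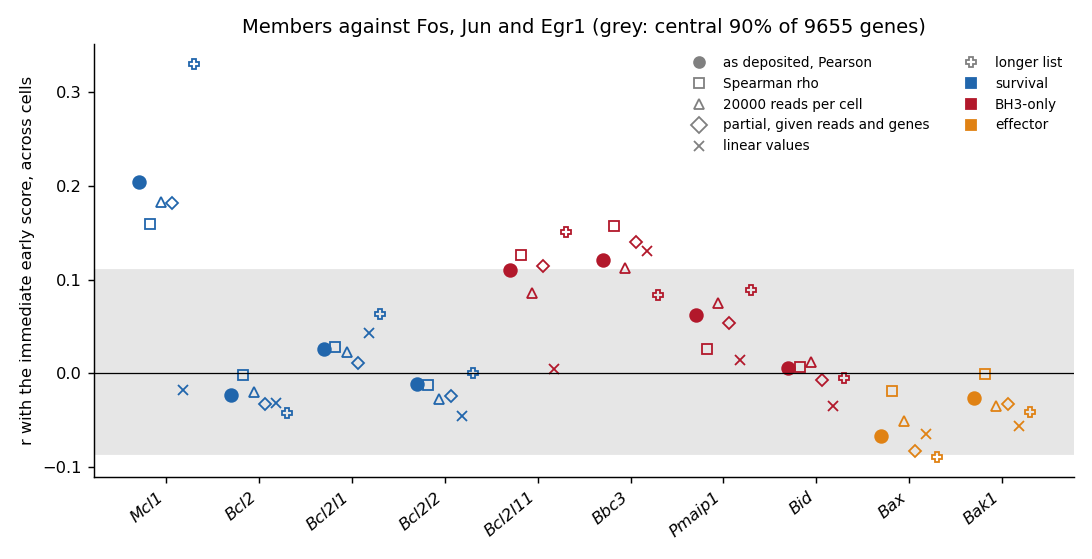
r of each member with the immediate early score across cells (y axis), under 6 settings shown by symbol and coloured by role. The grey band holds the central 90% of 9655 genes for the main setting, Pearson r on the deposited values (filled points). The other settings have no band of their own. *Mcl1* lies above the band under 5 settings (0.159 to 0.330) and at -0.0177 on linear values, and the effectors lie at or below 0.

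The regions before the start of the 3 members that went furthest with the score are shown because motifs for AP-1 and Egr factors, the proteins that *Fos*, *Jun* and *Egr1* encode, can be searched for in them. They are the 250 bases before a RefSeq start (GRCm38.p6, 5′ to 3′ on the plus strand, on which all 3 genes lie), with capitals marking matches to GCGNGGGCG (Egr-type) and GGGCGG (the GC box) on either strand. None overlaps an annotated exon of GENCODE release M21. The first ends before the start of *Mcl1*, at chr3:95658471-95658720, and the second before 1 of 2 RefSeq starts of *Bcl2l11*, at chr2:128125788-128126037. The third, at chr7:16309333-16309582, precedes 1 of 3 RefSeq starts of *Bbc3* and lies within an intron of another of its transcripts. For *Bcl2l11* and *Bbc3* the window shown was picked from those that hold an Egr-type match.
*Mcl1*: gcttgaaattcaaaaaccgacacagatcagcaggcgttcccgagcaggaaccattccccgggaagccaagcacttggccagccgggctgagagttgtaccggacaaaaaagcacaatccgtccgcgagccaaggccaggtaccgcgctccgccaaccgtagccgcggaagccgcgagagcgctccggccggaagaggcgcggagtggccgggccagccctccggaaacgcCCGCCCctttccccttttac
*Bcl2l11*: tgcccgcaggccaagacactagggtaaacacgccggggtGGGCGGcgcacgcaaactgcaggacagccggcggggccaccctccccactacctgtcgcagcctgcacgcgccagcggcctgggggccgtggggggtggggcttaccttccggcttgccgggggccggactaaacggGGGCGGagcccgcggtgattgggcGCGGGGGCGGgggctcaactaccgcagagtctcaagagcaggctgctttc
*Bbc3*: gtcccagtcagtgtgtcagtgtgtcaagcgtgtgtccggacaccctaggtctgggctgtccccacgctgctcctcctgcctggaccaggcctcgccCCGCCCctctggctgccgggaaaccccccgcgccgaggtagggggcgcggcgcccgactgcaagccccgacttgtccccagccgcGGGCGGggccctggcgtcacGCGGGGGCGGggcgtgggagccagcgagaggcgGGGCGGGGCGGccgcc

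The windows of *Bcl2l11* and *Bbc3* shown were picked for an Egr-type match, so its presence there is not a result. The match lies at much the same distance from the start in both. It runs from base -50 to -42 in *Bcl2l11* and from -49 to -41 in *Bbc3* (counted back from the base before the start). In both a GC box overlaps it. A second window of *Bbc3* holds another, from -141 to -133, whereas the third window of *Bbc3* and the other of *Bcl2l11* hold none. Such a match is in 4.70% of the 32851 windows of this length in the RefSeq table. The motif is rich in G and C, and these bases make up 76.4% of the window of *Bbc3* and 72% of that of *Bcl2l11* shown, 64.4% of that of *Mcl1* and a median of 52.4% over all windows. The window of *Mcl1* has none and holds a single GC box on the other strand, from -20 to -15, a motif present in 32.7% of all windows. The AP-1 motif TGANTCA (6.75% of windows), the CRE motif TGACGTCA (1.55%), the STAT motif TTCNNNGAA (7.02%) and the CArG box bound by SRF (1.47%) were in none of the 14 windows of the 9 members that have one. An NF-kB motif (7.25% of windows) was in 1 window each of *Bbc3* and *Bcl2l1*. *Pmaip1* has no window in the table. A match describes letters only, and the lack of one says nothing of sites elsewhere.

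By Pearson r with *Mcl1* over all cells, the 10 highest of 9655 genes were *Sbno2* (0.342), *Irf1* (0.337), *Atf3* (0.319), *Nfkbia* (0.314), *Socs3* (0.305), *Neat1* (0.298), *Ifrd1* (0.295), *Midn* (0.289), *Cdkn1a* (0.286) and *Kdm6b* (0.284). *Irf1* is an interferon response factor, *Nfkbia* the inhibitor of NF-kB, *Socs3* the feedback inhibitor of STAT3 signalling, *Atf3* a stress factor and *Cdkn1a* the p53 target that halts the cell cycle. Of these 10 genes, *Irf1*, *Atf3*, *Nfkbia* and *Socs3* stand on the immediate early or dissociation list used here. All 10 remained among the 10 highest given depth and genes found, 9 at equal depth and 7 by rank correlation. These r values were above that of *Mcl1* with the score (0.204). The 5 lowest were *Gng11* (-0.196), *Crip2* (-0.179), *Fcgrt* (-0.171), *Txnip* (-0.169), a brake on thioredoxin, and *Tmem59* (-0.166).

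*Mcl1* was set against the mean levels of gene lists in the same way. *Mcl1* had an r of 0.330 with the longer immediate early list, 0.308 with 13 p53 targets, 0.301 with 10 NF-kB targets, 0.239 with 8 genes of the integrated stress response, 0.188 with 8 heat shock genes and 0.143 with 8 FoxO targets, but 0.0311 with 12 interferon-stimulated genes. *Klf2* and *Sesn2* each stand on 2 of these lists. Most lists went with the score themselves: the r of their mean with it was 0.638 for integrated stress, 0.550 for heat shock, 0.426 for FoxO targets, 0.364 for NF-kB targets and 0.252 for p53 targets, and -0.0446 for interferon-stimulated genes. For each list but the last, the r of *Mcl1* was above the 95th percentile over all genes for that list (0.0845 to 0.129). The r of *Mcl1* with the p53 targets rested in large part on *Cdkn1a* and was 0.154 without it. Without *Cdkn1a* the mean of that list had an r of 0.0246 with the score. *Atf3* and *Socs3*, on the longer immediate early list, and *Nfkbia*, on the NF-kB list, were also among the 10 genes nearest to *Mcl1*. These lists were not tried without them. *Bcl2l11* came next among members, with 0.162 for the NF-kB list, 0.151 for the immediate early list and 0.120 for the p53 targets. *Bcl2l1*, whose protein shares the role of MCL1, lay between -0.0941 (interferon) and 0.0635 (immediate early) over the same lists.

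Neighbours were also taken for *Bcl2*, *Bcl2l1*, *Bax* and *Bcl2l11*, and their highest r values lay below the 10 above. The highest r of *Bcl2l11* was with *Plekhg2* (0.225), followed by *Ifrd1* (0.221), which was also among the neighbours of *Mcl1*, and *Fosl2* (0.199), an AP-1 subunit. Those of *Bcl2l1* (*Prkaca*, *Spcs2* and *Prelid3b*) and *Bax* (*Spcs1*, *A630001G21Rik* and *Ccdc137*) lay between 0.133 and 0.156, and *Bcl2* was nearest to the unnamed transcripts *Gm17571* (0.196), *Gm38157* (0.175) and *Gm43820* (0.171). Not all of these neighbours held by rank correlation: rho was 0.0269 for *Gm17571* and 0.0705 for *Gm38157* with *Bcl2*, 0.114 for *Plekhg2* with *Bcl2l11*, and 0.102 for *A630001G21Rik* and 0.0820 for *Ccdc137* with *Bax*. Members also did not go with each other. Over the 45 pairs, r ran from -0.0879 to 0.111 with a median of 0.0099, and the highest were those of *Mcl1* with *Bcl2l2* (0.111), *Bcl2l11* (0.0981) and *Pmaip1* (0.0971), the last 2 being death genes.

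The rest of the death pathway was set against the score as well. Of 42 genes listed as other family members, caspases and apoptosome, inhibitors of apoptosis, death receptors, mitochondrial channels and regulators of MCL1 turnover, 38 had a row and 31 passed the filter. None of these 31 had an r of 0.2 or more in size, and with 1.85% of all genes at 0.2 or above and 0.249% at -0.2 or below, a list of this size would hold few or none. Their median r was 0.0028, against -0.0061 over all genes. *Ripk1*, a kinase downstream of death receptors, was the single gene at least 1.5-fold higher in the highest quartile (log2 ratio of 0.72), and *Casp2* (-0.61) and *Casp9*, the initiator caspase of the apoptosome (-0.85), were lower by at least that much. Over all genes these shares were 5.27% and 8.43%, so the counts of this list do not stand out from them. *Huwe1*, the ubiquitin ligase that marks MCL1 for degradation, was found in 89.4% of cells with an r of -0.0080, and *Usp9x*, the enzyme that removes the mark, in 58.3% with an r of -0.0196. *Xiap*, which blocks caspases, was found in 72.2% and *Cflar*, which blocks caspase-8, in 77%.

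To see whether the members differed between LEC states, cells were clustered with the members left out of the genes used. Of the members, *Bid* alone was among the 2000 most variable genes. The 5 clusters held 32.3%, 31.5%, 25.4%, 5.82% and 4.99% of cells, the last 2 being groups of 49 and 42 cells. By their markers, cluster 1 was precollecting or collecting-like (*Igfbp5*, *Clca3a1*, *Apoe* and *Foxp2*), cluster 3 *Ptx3*+ capillary-like (*Ptx3*, *Stab2*, *Aqp1* and *Mrc1*) and cluster 4 *Ptx3*- capillary-like (*Fndc1*, *Ptn*, *Lyve1* and *Cyp4b1*). Cluster 2, led by *Tgfbi* and *Slco2b1*, and cluster 5, led by *Slc41a1*, *Gdf15* and *Plat*, stayed unnamed. Of the 5 valve markers, *Cldn11* and *Itga9* were raised in cluster 5, *Gja4* and *Gata2* in cluster 1 and *Itga9* in cluster 4. No cluster had the 3 raised valve markers needed for that name.

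In these clusters the means of *Mcl1* differed by less than its SD over cells. Its mean ln value was 1.29 ± 0.697, 1.29 ± 0.744, 1.37 ± 0.678, 1.20 ± 0.644 and 1.55 ± 0.663 in clusters 1 to 5, so that the highest and the lowest were 0.355 apart, less than the SD within any cluster. In other partitions they lay further apart, by 0.604 at a resolution of 0.8, where a cluster of 82 cells reached 1.77, and by 0.624 when the dissociation score was not regressed out (0.993 to 1.62). Cluster 5 was highest, and all its 42 cells had *Mcl1* reads, although its median score (2.20) was the lowest of the 5. The r of *Mcl1* with the score was 0.197, 0.183, 0.340 and 0.194 in clusters 1 to 4 and -0.162 in the 42 cells of cluster 5. *Bcl2l1* had its highest means in clusters 5 (1.26 ± 0.609) and 4 (1.18 ± 0.678) and its lowest in cluster 3 (0.949 ± 0.689).

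Among the 3 larger clusters, *Pmaip1* had the widest range of shares. It was found in 33.6% of the cells of cluster 3 (27.3–40.4), 22.3% of cluster 2 (17.4–27.8) and 11.8% of cluster 1 (8.19–16.2), at median depths of 366261, 297641 and 370154.5 reads. The shares at 20000 reads per cell were 25%, 15.9% and 7.81%. How many of all genes differ as much between these clusters was not counted. In cluster 4 it was found in 30.6% of 49 cells (18.3–45.4) and in cluster 5 in 11.9% of 42 (3.98–25.6). In all 6 partitions tried, the cluster with the highest mean of *Stab2*, a capillary scavenger receptor, also had the highest mean of *Pmaip1*. Clusters were formed from the same cells, and with 1 sample no test was made.

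Other death genes followed cluster 3 less clearly. *Bcl2l11* was found in 45.3% of its cells (38.5–52.3), 32.7% in cluster 1 (27.2–38.6) and 18.4% in cluster 4 (8.76–32). *Bid* was found in 0 of the 49 cells of cluster 4 (exact interval of 0–7.25) and in 10.3% of cluster 3 (6.56–15.2), with overlapping intervals. *Bax* ranged from 48.3% in cluster 2 to 57.7% in cluster 1, with overlapping intervals. The median balance was lowest in cluster 3 (1.46) and highest in clusters 5 (2.55) and 4 (2.39), with middle 50% ranges that overlapped (0.353 to 2.62 in cluster 3, 1.26 to 4.12 in cluster 5). Survival genes were ahead in 83% to 92.9% of cells in every cluster.

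**Figure D5:**
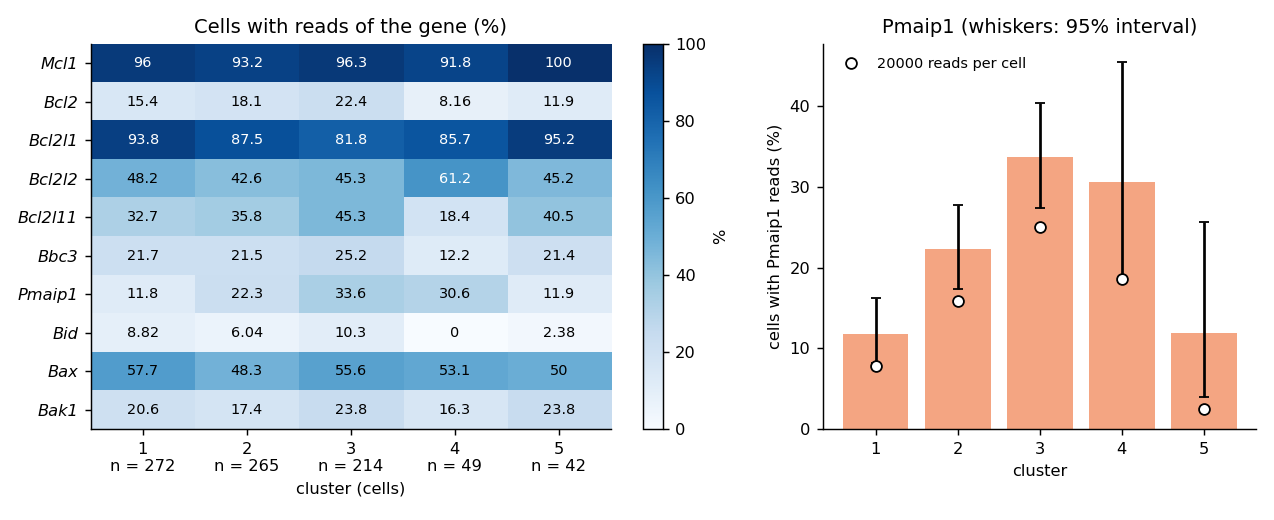
Members across the 5 clusters. Left, percentage of cells with reads of each member by cluster (cell counts under the axis). Right, the same for *Pmaip1* with 95% exact intervals and, as open points, the share at 20000 reads per cell; it is highest in the *Ptx3*+ capillary-like cluster 3 (33.6%) and lowest in cluster 1 (11.8%).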

How the data were processed

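The deposited matrix holds natural log (ln) values. It holds 842 cells of the 1536 wells listed. The authors mapped reads with STAR on mm10 and counted genes with featureCounts (Subread). They kept cells with at least 2000 genes and at most 10% of mitochondrial reads and normalized with Seurat 4.1.0. Their methods name a log2 step, but only exp(value) minus 1 sums to 10000 in every cell. Strand, multi-mapping and annotation settings are not given in the sources used here, so reads over shared exons could fall to either gene. Whole reads were recovered (100% of values above 0 within 0.01 of a whole read). Smart-seq3 carries molecular identifiers, but reads were counted as far as stated. No doublet caller was run.

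The members and gene lists were chosen with earlier results of these data known. A gene was found in a cell with at least 1 read, and genes found in at least 10% of cells were tested (9 of the 10 members, without *Bid*). Exon lengths and coordinates came from GENCODE release M21, in which 96.0% of symbols matched. Partial r was taken on the residuals after the log of total reads and of genes found. Genes named are the members, the score genes, the 10 highest and 5 lowest r with *Mcl1*, the 3 highest for *Bcl2*, *Bcl2l1*, *Bax* and *Bcl2l11*, and pathway genes past an r of 0.2; those past 1.5-fold, further family members, regulators of MCL1 turnover, *Xiap* and *Cflar* were chosen after their values were seen.

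Cells were clustered in Seurat 5.3.0 (R 4.3.3) with 2000 variable genes and depth, mitochondrial share and module scores regressed out, at the smallest resolution giving 5 clusters (0.5). A cluster took a name with at least 3 markers raised. The dissociation list was written for this work (97 genes used). Other steps ran in Python 3.11.15 (SciPy 1.17.1, pandas 2.3.3, NumPy 2.4.6) and were tested on simulated data. Thinning kept 791 cells, and 697 cells had at least 3000 genes. Alternatives changed depth, scale, score genes, lengths, pseudocount, filters and clustering.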

Additional observations from a re-analysis of the deposited data

How the results depend on the processing

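The r of *Mcl1* with the score changed sign on linear values (-0.0177) and in cluster 5 (-0.162, 42 cells), and moved by more than 0.1 with the longer list (0.330) and in cluster 3 (0.340); no cause was tested. The share of cells with *Mcl1* was 89.1% with at least 5 reads required, 88.1% after thinning and 97.1% in cells with at least 3000 genes. Survival genes were ahead in 91.3% of cells with no length scaling, 58.8% without *Mcl1*, 93.1% without *Bax* and 53.1% with the further family members added, each by construction of the sums. With quartiles by the longer list, 4 members in place of 2 were at least 1.5-fold higher in the highest quartile (6.67% of all genes in place of 5.27%), 1 in place of 0, *Bax*, was at least 1.5-fold lower (11.8% in place of 8.43%), and the log2 ratio of *Mcl1* was 1.04 in place of 0.449. Without the 52 wells with reads of both *Xist* and a Y chromosome gene, survival genes were ahead in 85.3% of cells, an alternative added after seeing the data, and the r of *Mcl1* was 0.218. The highest and the lowest cluster mean of *Mcl1* were 0.355 apart, against 0.604 at a resolution of 0.8 and 0.624 without regression of the dissociation score. Among values for single members, 28 moved, most of them shares of cells under another depth or threshold, and 170 did not. No paired analysis was possible because all cells form 1 sample of 1 group, so no replicate could be left out either. Depth limits what can be said of *Bid*, *Bak1*, *Bbc3* and *Bcl2* in single cells.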
